A study of Mus musculus with 9 samples.

Results

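Integrins and the adhesion molecules that leukocytes use alongside them were followed gene by gene in the murine T15 cell line. The 37 genes were listed by name and family, with earlier results of these data known, and comprised 26 integrin subunits (18 alpha and 8 beta) and 11 other adhesion molecules, namely intercellular and vascular adhesion molecules, selectins and a selectin ligand, Pecam1, Cd44, L1cam and Ncam1. All 37 were found among the 35288 listed genes, and 22 of them (15 integrin subunits and 7 others) were among the 13697 genes with enough counts to be tested.

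T15 is a Smarcb1-negative line of a peripheral T-cell lymphoma (PTCL), obtained from a mouse model in which Smarcb1 is lost in T-cells. Smarcb1 is a subunit of the SWI/SNF chromatin remodeling complex. RNA-seq was performed on 3 control, 3 SAHA and 3 Smarcb1-RE libraries. SAHA cells received vorinostat, an inhibitor of histone deacetylases, at 1 µM over 72 h. Smarcb1-RE cells carried a lentiviral pInducer20 construct with the Smarcb1 cDNA, were selected with G418 and were induced with doxycycline (Dox, 0.5 µg/µl) for 72 h. All 9 libraries came from the same line, and all control and SAHA cells lacked Smarcb1. Both a drug vehicle and a control plasmid are mentioned in the sample descriptions, but not which of them, if any, was used for the 3 control libraries, and the study's own text calls these cells untreated. Effects of transduction, selection and Dox therefore cannot be told apart from those of Smarcb1 in Smarcb1-RE. Independent stable clones were established in the study, and whether the 3 Smarcb1-RE libraries came from the same clone is not stated.

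An integrin is a pair of an alpha and a beta subunit, and the pair decides which ligand is bound. On T-cells, Itgal with Itgb2 (LFA-1) binds intercellular adhesion molecules, Itga4 with Itgb1 (VLA-4) binds Vcam1 and fibronectin, Itga4 or Itgae with Itgb7 serves homing to and retention in the gut, and Itgav with Itgb1, Itgb3 or Itgb5 binds vitronectin and other proteins with an RGD motif. Selectins slow leukocytes on the vessel wall by binding sugar-decorated ligands such as that encoded by Selplg, and Cd44 binds hyaluronan.

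Depth was similar in all libraries, with totals from 20900424 to 24941408 counts, so that 3 counts, taken as the detection floor, equalled 0.123 to 0.133 CPM (counts scaled to the library size). Smarcb1 had 2, 5 and 8 counts in control, 7, 13 and 3 with SAHA and 151, 147 and 142 in Smarcb1-RE. Of 13 T-cell markers, 9 lay above the floor in every library, including Cd3e, Cd8a and Cd8b1, and their summed level was 3510 to 3620 CPM in control, 3930 to 3970 in SAHA and 3570 to 3640 in Smarcb1-RE. Cd2, Cd5 and Cd4 stayed at or under the floor in all libraries and Thy1 did not exceed 6 counts. Markers of other lineages were summed as well. They reached at most 7.45 CPM for myeloid cells (SAHA, nearly all Cd68), 7.96 CPM for B-cells (Smarcb1-RE, mostly Ms4a1 and Pax5), 0.298 CPM for platelets, 1.66 CPM for endothelium, 1.21 CPM for fibroblasts and 3.36 CPM for epithelium. Control replicate 1 stood apart from the other control libraries (chi-square per gene 13.4 and 15.0, against 3.64 between control replicates 2 and 3), and the calls that change without it are given beside the genes concerned.

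Levels are given as CPM scaled by edgeR's trimmed mean method. For comparison between genes only, they were divided by the length of the merged exons. On this per-kilobase scale, 9 of the 37 genes lay between 9.68 and 53.1 in control cells. Itgb2 was highest at 53.1 ± 0.349 CPM per kb (SD, n = 3, as for all values marked ±), followed by Itgav at 37.2 ± 2.73, Cd44 at 37.1 ± 1.37 and Itga4 at 34.2 ± 4.05, which overlapped each other. Itgb1 (26.8 ± 0.763) and Pecam1 (24.1 ± 0.653) came next, then Itgb5 (18.3 ± 0.655), Itgal (15.1 ± 1.37) and Icam1 (9.68 ± 0.0942). Itga6 lay at 1.64 ± 0.0571 CPM per kb, and the next gene, Icam4, at 0.631 ± 0.222. This order depends on the length used. With the longest transcript in place of merged exons, Itgav led with 56.7 CPM per kb, ahead of Itgb2 (54.6), Itga4 (49.0), Cd44 (44.8) and Pecam1 (43.7). In SAHA cells, Cd44 was the highest of the 37 genes (64.1 ± 1.11 CPM per kb, against 56.8 ± 1.64 for Itgb2), whereas in Smarcb1-RE cells Itgb2 (58.1 ± 1.55) and Itga4 (53.8 ± 0.727) led and Cd44 came behind Itgb1.

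**Figure D1:**
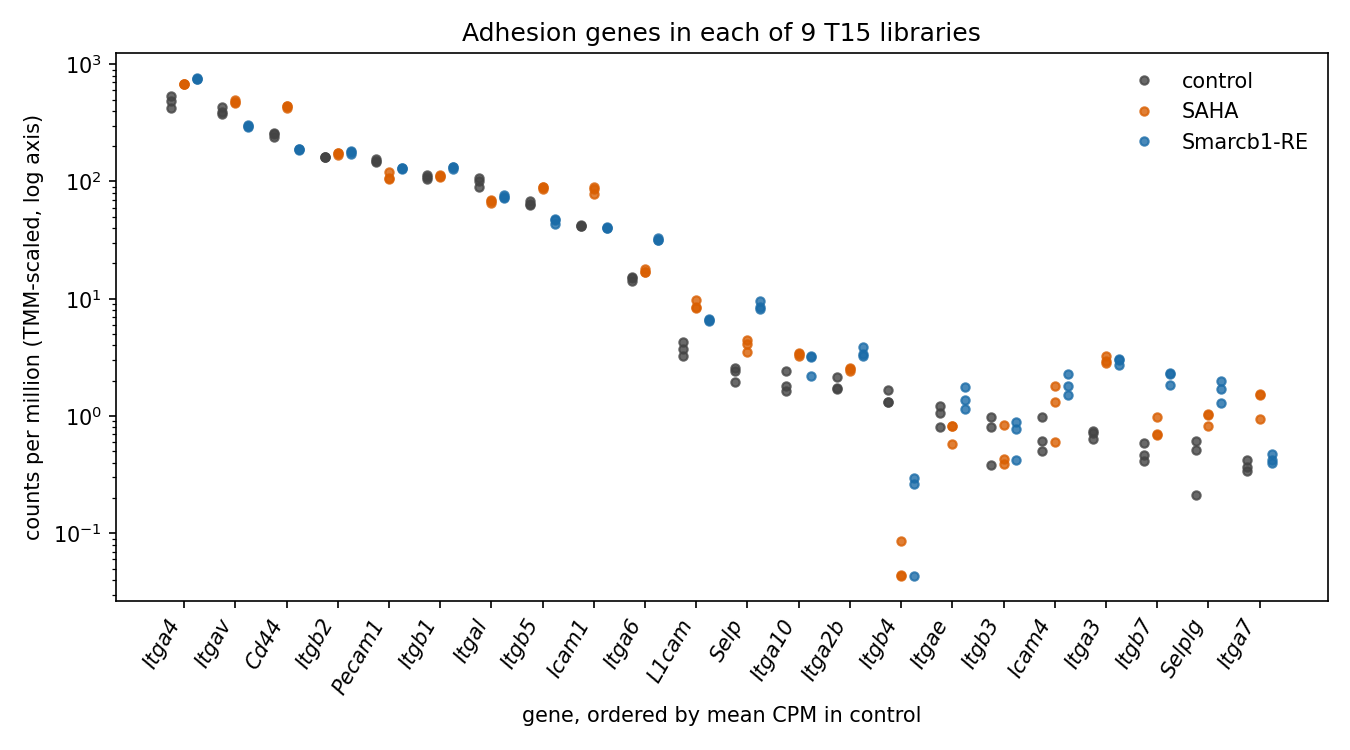
Each point is a library (3 control, 3 SAHA, 3 Smarcb1-RE), the vertical axis is CPM on a log scale, and the 22 tested genes are ordered by their mean CPM in control. Cd44, Itgav, Itgb5 and Icam1 lie highest in SAHA, Itga4, Itga6, Selp and Itgb7 lie highest in Smarcb1-RE, and Itgb4 drops in both treated groups.

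Of the remaining 15 genes, Itga1 and Itgb8 had no count in any library, and another 8 (Itga2, Itga5, Itga8, Itga9, Itga11, Itgad, Itgax and Icam2) did not exceed 3 counts in any library. A count of 0 does not exclude RNA below what this depth can detect. Itgam, Itgb6, Vcam1, Ncam1 and Sele were found above 3 counts in at least 1 library and never above 12. The defining alpha subunits of myeloid cells were thus at or near 0, and so were those for the collagen receptors Itga1 and Itga2, for the fibronectin receptor Itga5 and for the tenascin receptor Itga9.

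In SAHA, 15 of the 22 tested genes were higher than in control, 3 were lower and 4 had no call (edgeR's quasi-likelihood test, adjusted p under 0.05). Over all tested genes, 32.6% were called higher and 34.3% lower. The median log2 fold change of the 22 genes was 0.47, against 0.00 for all genes. With an absolute log2 fold change of at least 1, 5 were higher (Itga3, Itga7, L1cam, Selplg and Icam1) and 1 was lower (Itgb4), where 9.85% of all tested genes were higher and 2.36% lower. In Smarcb1-RE, 12 were higher, 6 lower and 4 without a call, against 39.2% higher and 38.6% lower over all tested genes. The median was 0.37, against 0.01. At the larger threshold, 6 were higher (Itgb7, Itga3, Selp, Selplg, Icam4 and Itga6) and 1 was lower (again Itgb4), where 16.9% of all tested genes were higher and 6.78% lower. Itgb4 had enough counts to be tested only through the control libraries, where it was high. Since both comparisons use the same control libraries, their values are set side by side below and the treatments are compared directly. Without control replicate 1, the SAHA counts were 16 higher (with Icam4) and 3 lower, and those of Smarcb1-RE were again 12 and 6. In bulk RNA, fewer cells of a kind and less RNA per cell cannot be told apart.

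How the 2 treatments are scaled matters for Smarcb1-RE. When only library totals were used, the median over the whole table moved from 0.01 to 0.17 on the log2 scale and the share of higher genes among all calls from 50.4% to 61.0%. Against control, Pecam1 then lost its call in Smarcb1-RE and Itgae gained one (0.62, adjusted p = 0.0446). The uncalled values of Icam1 and Itgb3 changed sign, while every other call among the 22 genes in this comparison was kept. In Smarcb1-RE against SAHA, Itgal and Itgb2 gained calls in this way. In SAHA, the median was 0.00 with either scaling.

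**Figure D2:**
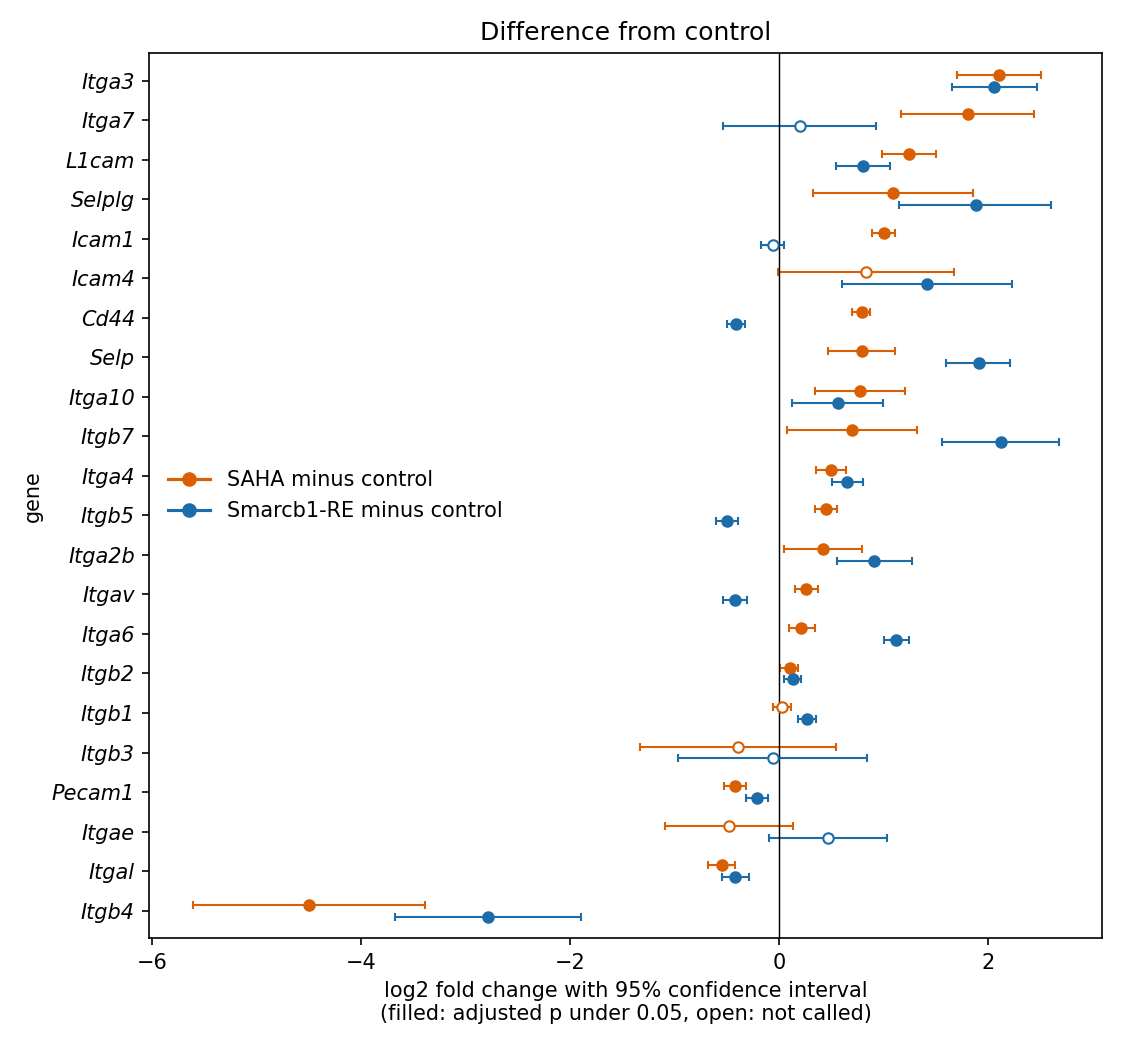
Log2 fold change against control on the horizontal axis, with its 95% confidence interval, for SAHA and for Smarcb1-RE, with the 22 tested genes ordered by the SAHA value. Filled points have an adjusted p under 0.05. Cd44, Itgav and Itgb5 lie to the right of 0 in SAHA and to the left in Smarcb1-RE, and Itgb4 is farthest to the left in both.

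Among the leukocyte integrins, the alpha subunit of LFA-1 was lower and its beta subunit slightly higher after both treatments. Itgal (ENSMUSG00000030830, chromosome 7 from 127296260 to 127335138, GRCm38) had 89.7, 101 and 107 CPM in control, 69.8, 67.8 and 66.2 with SAHA and 72.8, 77.0 and 73.3 in Smarcb1-RE. Every treated library lay under every control library. In SAHA the log2 fold change was -0.55 (standard error 0.06, adjusted p = 4.1e-06). In Smarcb1-RE it was -0.42 (standard error 0.059, adjusted p = 2.86e-05). Itgb2 (ENSMUSG00000000290, chromosome 10 from 77530252 to 77565708), the common partner of Itgal, Itgam, Itgax and Itgad, stood at 161, 163 and 162 CPM in control, 176, 168 and 176 with SAHA and 181, 172 and 179 in Smarcb1-RE. Its increases were small. In SAHA it was 0.10 (adjusted p = 0.0398), and this call was lost in 7 of the 9 fits that each left out a library, with values of 0.08 to 0.10 in those fits. In Smarcb1-RE it was 0.13 (adjusted p = 0.00787), and the call was lost only without Smarcb1-RE replicate 1 among those fits (0.10).

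Itgam, the alpha subunit of the myeloid integrin Mac-1, was too low to be tested. It had 12, 8 and 11 counts in control, 0, 1 and 1 with SAHA and 2, 2 and 3 in Smarcb1-RE. The groups did not overlap. The ratio of summed, depth-scaled counts to control was 0.0669 in SAHA (95% interval 0.00776 to 0.263) and 0.233 in Smarcb1-RE (0.0867 to 0.540). These intervals cover counting error only. Of Itgam's sequence, 68.3% of 31-base words are shared with other listed genes, mainly Gm49368. This annotated gene overlaps Itgam on the same strand and was listed at 0 in all libraries.

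Itga4 was higher after both treatments, and Itgb7 mainly in Smarcb1-RE. Itga4 (ENSMUSG00000027009, chromosome 2 from 79255426 to 79333123) had 420, 483 and 533 CPM in control, 679, 673 and 676 with SAHA and 750, 744 and 764 in Smarcb1-RE. Both treated groups lay above all control libraries, and the spread was widest in control. On the log2 scale the increase was 0.50 in SAHA (standard error 0.066, adjusted p = 2.4e-05) and 0.65 in Smarcb1-RE (standard error 0.066, adjusted p = 1.24e-06). Exons of Itga4 overlap those of Cerkl on the opposite strand by 905 bases. Cerkl itself had 11 to 16 counts in control, 22 to 27 in SAHA and 35 to 42 in Smarcb1-RE, and the strand setting of the quantification is not stated.

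Itgb7 (ENSMUSG00000001281, chromosome 15 from 102215995 to 102231944) was scarce. Its counts were 14, 11 and 10 in control, 16, 16 and 23 with SAHA and 43, 52 and 54 in Smarcb1-RE, which do not overlap between any of the groups. The log2 fold change was 2.12 (standard error 0.26, adjusted p = 6.91e-06) in Smarcb1-RE. In SAHA it was 0.70 (adjusted p = 0.046), and this call was lost in 7 of the 9 fits that each left out a library (0.51 at the lowest, without SAHA replicate 3) and with DESeq2 (adjusted p = 0.126). Itgae, the partner of Itgb7 in intraepithelial T-cells, had 19 to 29 counts in control, 13 to 19 in SAHA and 27 to 40 in Smarcb1-RE. Neither comparison with control gave a call (log2 fold changes -0.48, 95% interval -1.09 to 0.13, and 0.47, -0.10 to 1.03), although with library totals only the Smarcb1-RE value was 0.62 and passed the threshold (adjusted p = 0.0446).

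Itgb1 (ENSMUSG00000025809, chromosome 8 from 128685654 to 128733200) is the most widely shared beta subunit and pairs with both Itga4 and Itgav. It had 109, 113 and 106 CPM in control, 114, 109 and 111 with SAHA and 129, 134 and 132 in Smarcb1-RE. SAHA and control overlapped (log2 fold change 0.03, 95% interval -0.06 to 0.11), whereas all Smarcb1-RE libraries lay above both. The log2 fold change in Smarcb1-RE was 0.27 (standard error 0.039, adjusted p = 3.44e-05).

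Among the laminin receptors, Itga3 and Itga6 rose and Itgb4 fell. Itga3 (ENSMUSG00000001507, chromosome 11 from 95044474 to 95076801) had 15, 17 and 18 counts in control, 68, 74 and 66 with SAHA and 71, 69 and 63 in Smarcb1-RE. The treated groups overlapped each other and lay far above control. Log2 fold changes were 2.10 (standard error 0.19, adjusted p = 7.26e-07) and 2.06 (standard error 0.19, adjusted p = 4.31e-07). Itga6 (ENSMUSG00000027111, chromosome 2 from 71745616 to 71858416) had 15.1, 14.2 and 15.2 CPM in control, 16.9, 16.9 and 17.8 with SAHA and 32.9, 31.9 and 32.0 in Smarcb1-RE. Its log2 fold change was 1.12 in Smarcb1-RE (adjusted p = 1.18e-09) and only 0.21 in SAHA (adjusted p = 0.00507). Itga7, a laminin receptor best known from muscle, had 10, 8 and 9 counts in control, 22, 34 and 36 with SAHA and 10, 9 and 11 in Smarcb1-RE. Only the SAHA libraries stood apart (log2 fold change 1.81, standard error 0.29, adjusted p = 0.000131), and the value in Smarcb1-RE was 0.20 (95% interval -0.54 to 0.93).

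Itgb4 (ENSMUSG00000020758, chromosome 11 from 115974709 to 116008412) pairs with Itga6 in the hemidesmosomes that anchor epithelia. It had the largest fitted change of the 22 tested genes in each comparison with control. However, Itgb4 had enough counts to be tested only through the control libraries, where it was high. Its rank and adjusted p-values are therefore no separate support for a fall. Its counts were 39, 31 and 32 in control, 1, 1 and 2 with SAHA and 7, 6 and 1 in Smarcb1-RE. All SAHA libraries and 1 Smarcb1-RE library lay at or under the floor of 3 counts. From summed counts, the ratio to control was 0.0407 in SAHA (95% counting interval 0.0109 to 0.107) and 0.142 in Smarcb1-RE (0.0748 to 0.249). The fitted log2 fold changes were -4.50 (adjusted p = 6.27e-06) and -2.79 (adjusted p = 3.99e-05). The summed level of 4 epithelial markers was 0.760 to 1.45 CPM in control, 2.38 to 3.36 in SAHA and 0 to 0.128 in Smarcb1-RE. Nearly all of it was Epcam, since Krt8, Krt18 and Cdh1 did not exceed 4 counts, and its part in the result was not tested.

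Itgav and Itgb5, which pair as a vitronectin receptor, moved in opposite directions in the 2 treatments. Itgav (ENSMUSG00000027087, chromosome 2 from 83724397 to 83806916) had 373, 394 and 431 CPM in control, 493, 467 and 475 with SAHA and 292, 295 and 306 in Smarcb1-RE. The 3 groups did not overlap. SAHA differed from control by 0.26 (log2, standard error 0.051, adjusted p = 0.000611) and Smarcb1-RE by -0.42 (standard error 0.051, adjusted p = 6.78e-06). Itgb5 (ENSMUSG00000022817, chromosome 16 from 33829665 to 33949338) had 63.3, 67.6 and 63.9 CPM in control, 86.0, 89.1 and 90.2 with SAHA and 47.1, 47.6 and 43.3 in Smarcb1-RE, again without overlap. Its log2 fold changes were 0.45 (adjusted p = 3.1e-06) and -0.50 (adjusted p = 9.24e-07). Of the Itgb5 sequence, 7.86% of 31-base words are shared with other listed genes, mainly Gm38317. Gm38317 was itself estimated at 104 to 146 counts in control, 107 to 166 in SAHA and 67 to 74 in Smarcb1-RE.

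The other subunits tested were scarce. Itgb3, the partner of Itgav and Itga2b, had 9 to 24 counts in control, 9 to 19 in SAHA and 10 to 20 in Smarcb1-RE, with no call in either comparison (log2 fold changes -0.39, 95% interval -1.33 to 0.54, and -0.06, -0.97 to 0.84). Itga2b, which marks the megakaryocyte lineage, had 40 to 51, 56 to 59 and 76 to 90 counts in the 3 groups in the same order, without overlap. Its log2 fold change was 0.42 in SAHA (adjusted p = 0.0437), a call lost in 8 of the 9 fits that each left out a library, and 0.91 in Smarcb1-RE (adjusted p = 0.000255). Of 5 megakaryocyte and platelet markers, 4 had no count in any library. Itga10, a collagen receptor, had 40 to 57, 75 to 78 and 50 to 76 counts. It was higher in SAHA (0.77, adjusted p = 0.00411), and in Smarcb1-RE the value was 0.56 (adjusted p = 0.0228) with overlapping groups. The Smarcb1-RE call was lost without control replicate 2 or 3 or without Smarcb1-RE replicate 1 or 3 (0.43 to 0.49). Of the Itga10 sequence, 31.8% of 31-base words are shared with other listed genes, mainly Gm42957, which had at most 5 counts.

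Among the ligands of the immunoglobulin family, Icam1 was higher in SAHA. Icam1 (ENSMUSG00000037405, chromosome 9 from 21015985 to 21028817), the main ligand of LFA-1, had 42.7, 42.0 and 41.9 CPM in control, 78.6, 85.8 and 88.9 with SAHA and 40.2, 41.3 and 40.1 in Smarcb1-RE. All SAHA libraries lay above all others, and Smarcb1-RE lay just under control. The difference in SAHA was 1.00 on the log2 scale (standard error 0.049, adjusted p = 6.01e-09) and that in Smarcb1-RE -0.06 (95% interval -0.17 to 0.05), the latter becoming 0.10 with library totals only. Icam4, known as a red cell antigen that binds leukocyte integrins, lies next to Icam1 and had 23, 12 and 15 counts in control, 14, 41 and 31 with SAHA and 54, 41 and 35 in Smarcb1-RE. It was higher in Smarcb1-RE (1.42, standard error 0.37, adjusted p = 0.0038). In SAHA, where the libraries ranged widely, the value was 0.83 (adjusted p = 0.0757). That comparison passed the threshold without control replicate 1 (1.14) or without SAHA replicate 1 (1.16). The exons of both genes overlap those of the annotated antisense gene Gm47079, by 511 and 658 bases.

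L1cam, a neural adhesion molecule that binds integrins, had 88, 77 and 105 counts in control, 197, 223 and 195 with SAHA and 157, 149 and 149 in Smarcb1-RE. The 3 groups were separate. Its log2 fold changes were 1.24 (standard error 0.12, adjusted p = 1.36e-06) and 0.80 (standard error 0.12, adjusted p = 5.36e-05). L1cam overlaps Arhgap4 on the same strand by 100 exon bases, and Arhgap4 was far more abundant (79.7 CPM in control, 128 in SAHA and 98.8 in Smarcb1-RE). Ncam1 was not tested. It had 1, 2 and 1 counts in control, 5, 4 and 6 with SAHA and 0, 2 and 4 in Smarcb1-RE, giving a ratio of SAHA to control of 3.89 (95% counting interval 1.24 to 16.1). Vcam1, the ligand of VLA-4, had 13, 8 and 20 summed counts in the same group order.

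Selp and Selplg were expressed at low levels, highest in Smarcb1-RE. Selp (ENSMUSG00000026580, chromosome 1 from 164115264 to 164150026), P-selectin of platelets and endothelium, had 46, 61 and 59 counts in control, 102, 93 and 82 with SAHA and 223, 184 and 197 in Smarcb1-RE. The groups did not overlap. Log2 fold changes were 0.79 (standard error 0.15, adjusted p = 0.000419) and 1.91 (standard error 0.14, adjusted p = 5.4e-08). Of the endothelial markers, Cdh5, Kdr and Tek stayed at or under the floor in every library, and the summed level of the list was 0.169 to 0.510 CPM in control, 0.387 to 0.707 in SAHA and 1.42 to 1.66 in Smarcb1-RE, mainly Vwf, whose part in the result was not tested. Selplg, which encodes the P-selectin ligand PSGL-1 of T-cells, had 12, 5 and 15 counts in control, 24, 23 and 19 with SAHA and 40, 29 and 46 in Smarcb1-RE. Its log2 fold changes were 1.09 (adjusted p = 0.0157) and 1.88 (adjusted p = 2e-04), and the SAHA call was lost without control replicate 2 (0.76). Of the Selplg sequence, 4.04% of 31-base words are shared with other listed genes, mainly the far more abundant Irak1. Irak1 had 2455 to 2654 counts in control, 1657 to 1882 in SAHA and 3231 to 3265 in Smarcb1-RE. Sele did not exceed 4 counts.

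Cd44 and Pecam1 were the abundant genes outside the integrin family. Cd44 (ENSMUSG00000005087, chromosome 2 from 102811141 to 102901665), the hyaluronan receptor and a marker of activated and memory T-cells, had 241, 254 and 259 CPM in control, 426, 436 and 441 with SAHA and 190, 187 and 190 in Smarcb1-RE. The 3 groups were clearly separate. Cd44 changed by 0.79 on the log2 scale (standard error 0.039, adjusted p = 6.12e-09) in SAHA and by -0.41 (standard error 0.039, adjusted p = 6.5e-07) in Smarcb1-RE. Pecam1 (ENSMUSG00000020717, chromosome 11 from 106654217 to 106750628), which binds to itself at the junctions of endothelial cells and is also found on leukocytes, had 154, 151 and 146 CPM in control, 121, 108 and 106 with SAHA and 130, 129 and 130 in Smarcb1-RE. Both treated groups lay under control. The log2 fold changes were -0.42 (standard error 0.05, adjusted p = 7.95e-06) and -0.21 (standard error 0.049, adjusted p = 0.00159), the latter becoming -0.05 without a call when only library totals were used.

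Comparing the treated groups directly, 10 of the 22 genes were higher and 6 lower in Smarcb1-RE than in SAHA, where 37.8% and 36.8% of all tested genes were. The largest differences were those of Itgb4 (1.71, with 1 to 7 counts per library), Itga7 (-1.61), Itgb7 (1.43), Cd44 (-1.20), Selp (1.12) and Icam1 (-1.06). The Cd44 difference had a standard error of 0.039 (adjusted p = 5.04e-11) and that of Icam1 0.049 (adjusted p = 9.57e-10). Itgb5 (-0.94, adjusted p = 2.31e-09), Itgav (-0.68, adjusted p = 8.06e-08) and L1cam (-0.44, adjusted p = 0.00318) were also lower in Smarcb1-RE. Itgae (0.95, adjusted p = 0.00703), Itga6 (0.91, adjusted p = 7.72e-09), Selplg (0.79, adjusted p = 0.031), Itga2b (0.49, adjusted p = 0.0158), Itgb1 (0.24, adjusted p = 0.000103) and Pecam1 (0.21, adjusted p = 0.0019) were higher.

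Several of these direct calls were close to the threshold. The difference of Itga4 was 0.15 (95% interval 0.01 to 0.30, adjusted p = 0.0481) and did not pass in 7 of the 9 fits that each left out a library, nor with RLE factors (adjusted p = 0.0691). That of Itgb4 (adjusted p = 0.0423) failed in 8 of the 9, including that without control replicate 1 (adjusted p = 0.0512), that of Selplg in 5 (all but those without a control library and without Smarcb1-RE replicate 2), and that of Itga2b without Smarcb1-RE replicate 3 (0.41) and with DESeq2 (0.47, adjusted p = 0.0527). The 6 genes without a call were Itga3 (-0.04, 95% interval -0.39 to 0.30), Itgb2 (0.03, -0.05 to 0.11), Itgal (0.13, 0.00 to 0.26), Itga10 (-0.22, -0.63 to 0.20), Itgb3 (0.33, -0.61 to 1.27) and Icam4 (0.58, -0.17 to 1.34). The result for Itgal depended on the processing. It was called higher in Smarcb1-RE than in SAHA without control replicate 1 (0.13, adjusted p = 0.0106), in a fit to these 2 groups alone (0.13, adjusted p = 0.0075), with a minimum of 10 counts in every library (0.15, adjusted p = 0.0321) and with library totals only (0.29, adjusted p = 0.0015). Itgb2 was called with library totals only (0.19, adjusted p = 0.000526), and Icam4 without SAHA replicate 2 (0.93, adjusted p = 0.0459). The intervals were wide for the scarce genes.

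**Figure D3:**
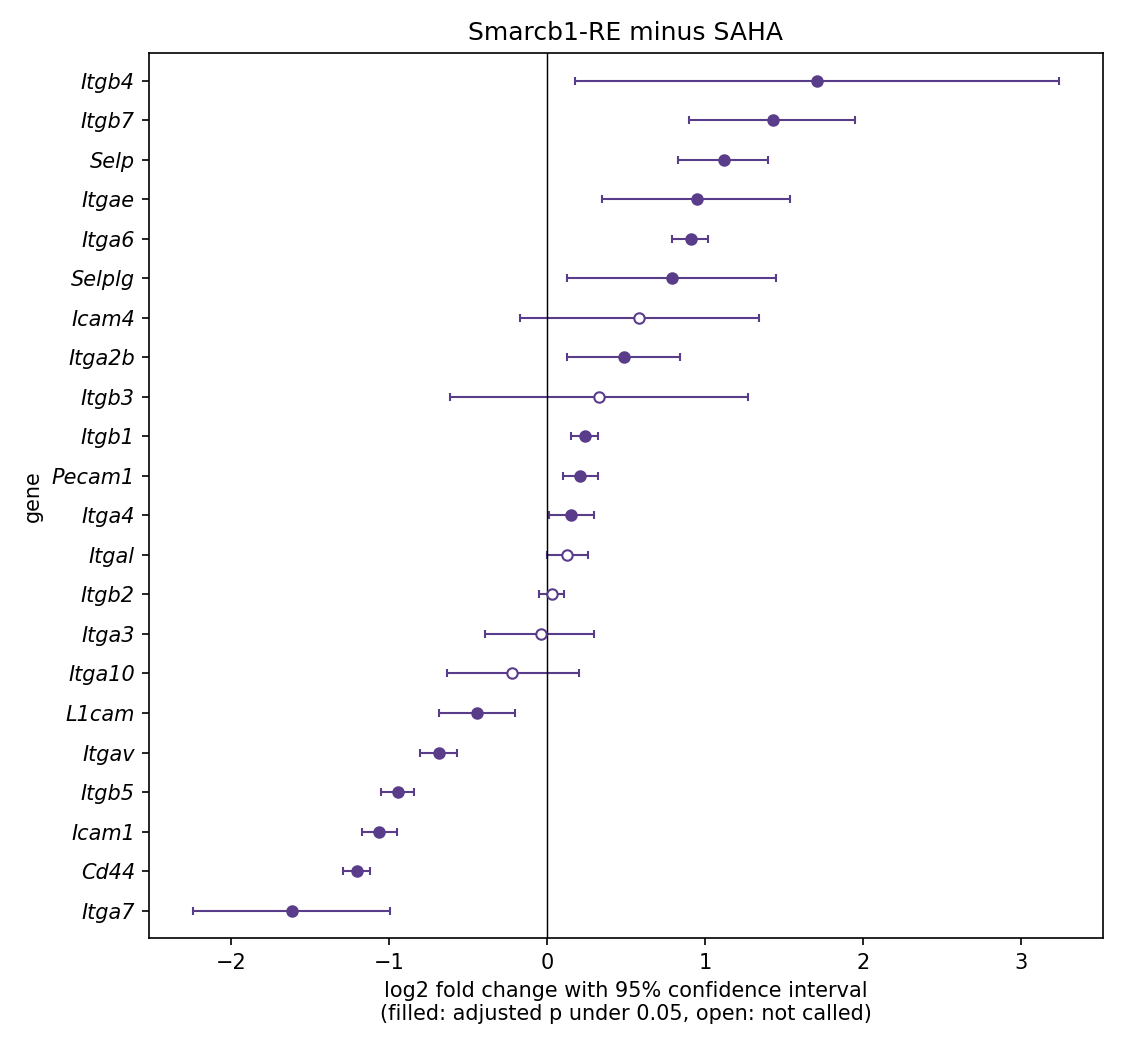
Log2 fold change of Smarcb1-RE against SAHA on the horizontal axis with its 95% confidence interval, for the 22 tested genes ordered by value. Filled points have an adjusted p under 0.05. Itga7, Cd44, Icam1, Itgb5 and Itgav lie to the left (higher in SAHA), and Itgb7, Selp, Itga6 and Itgb4, the last with the widest interval, lie to the right.

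The DNA upstream of genes that differed between the treated groups was read from RefSeq (GRCm38.p6), which gave promoters for 24 of the 37 genes, Itga7, Itgb4, Itgae, Itga6, Selplg and Pecam1 not among them. The 6 stretches below are the 200 bases before the RefSeq start of the 3 genes with the largest called difference in each direction among those that had a usable entry, lower in Smarcb1-RE than in SAHA first (Cd44, Icam1, Itgb5) and then higher (Itgb7, Selp, Itgb1). Itga2b was passed over, since more than 30 of these bases lie inside the annotated gene itself. Itgb1 therefore stands here with a difference of only 0.24. Capitals mark matches to 6 short motifs on either strand: GGGCGG (the GC box), CCGGAA (the Ets core), TGTGGT (the Runx core), TGANTCA (the AP-1 site), GGANNTTCC (an NF-kappa B motif, whose letters include the GGA of Ets sites) and TATAAA (the TATA box).
Cd44 (GRCm38.p6, chr2:102901666-102901865, minus strand): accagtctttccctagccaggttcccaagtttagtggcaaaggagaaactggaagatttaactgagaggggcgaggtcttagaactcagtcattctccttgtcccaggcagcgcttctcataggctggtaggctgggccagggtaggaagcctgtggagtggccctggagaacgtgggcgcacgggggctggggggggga
Icam1 (GRCm38.p6, chr9:21015740-21015939, plus strand): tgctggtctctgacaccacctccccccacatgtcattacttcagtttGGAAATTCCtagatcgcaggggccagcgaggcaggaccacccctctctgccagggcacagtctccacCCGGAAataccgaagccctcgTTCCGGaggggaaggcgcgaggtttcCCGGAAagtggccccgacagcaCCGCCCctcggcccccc
Itgb5 (GRCm38.p6, chr16:33829465-33829664, plus strand): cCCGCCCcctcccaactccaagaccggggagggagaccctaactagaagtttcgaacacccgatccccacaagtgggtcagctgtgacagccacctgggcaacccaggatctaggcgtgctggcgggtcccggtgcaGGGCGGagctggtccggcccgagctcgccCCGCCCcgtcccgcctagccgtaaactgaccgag
Itgb7 (GRCm38.p6, chr15:102231936-102232135, minus strand): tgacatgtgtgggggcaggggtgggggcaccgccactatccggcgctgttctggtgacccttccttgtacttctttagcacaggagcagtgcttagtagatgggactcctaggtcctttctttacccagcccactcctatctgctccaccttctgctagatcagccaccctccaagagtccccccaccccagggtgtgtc
Selp (GRCm38.p6, chr1:164115064-164115263, plus strand): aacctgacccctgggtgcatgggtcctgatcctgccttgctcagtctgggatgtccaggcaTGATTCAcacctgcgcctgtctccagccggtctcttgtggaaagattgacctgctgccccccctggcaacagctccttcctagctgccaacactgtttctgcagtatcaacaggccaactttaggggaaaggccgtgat
Itgb1 (GRCm38.p6, chr8:128685454-128685653, plus strand): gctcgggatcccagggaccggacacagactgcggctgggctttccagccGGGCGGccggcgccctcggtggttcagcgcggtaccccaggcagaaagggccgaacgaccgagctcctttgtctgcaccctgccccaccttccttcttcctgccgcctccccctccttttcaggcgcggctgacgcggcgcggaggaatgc

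In these stretches, Icam1 held 3 Ets cores, a GC box and the NF-kappa B motif, Itgb5 held 3 GC boxes and Itgb1 a single GC box, Selp held an AP-1 site, and Cd44 and Itgb7 held none of the motifs. Over the first listed promoter of all 27025 genes in the table, with 250 bases each, 32.9% held a GC box, 12.2% an Ets core, 14.2% a Runx core, 6.87% an AP-1 site, 3.56% the NF-kappa B motif and 13.0% a TATA box. The ratio of observed to expected CpG over 250 bases was 0.26 for Cd44, 0.58 for Icam1, 0.68 for Itgb5, 0.26 for Itgb7, 0.17 for Selp and 0.74 for Itgb1, with a median of 0.38 over all promoters. Values under and over that median occurred in each direction of change. These letters describe the sequence, and no binding or methylation was measured in these libraries.

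Since an integrin needs both subunits, the 26 subunits were also read as 24 known pairs. In control, 14 pairs had both subunits above 3 counts in every library, and in SAHA and in Smarcb1-RE 12 did. The pairs that dropped out were Itgam with Itgb2 and Itga6 with Itgb4 in both treatments. In Smarcb1-RE, the latter pair did so through 1 library only (Itgb4 counts 7, 6 and 1). Taking the scarcer subunit as a ceiling in CPM per kb, Itga4 with Itgb1 stood at 26.8 in control, 27.4 in SAHA and 32.2 in Smarcb1-RE. Itgav with Itgb1 stood at 26.8, 27.4 and 27.7, Itgav with Itgb5 at 18.3, 24.9 and 12.9, and Itgal with Itgb2 at 15.1, 10.3 and 11.3. In control and SAHA, the ceilings of Itga4 and of Itgav with Itgb1 are the same Itgb1 RNA. Which subunit is the scarcer depends on the length used. With the longest transcript, Itgb1 was the scarcer partner of Itgav in Smarcb1-RE too (34.5 against 42.2). The ceiling of Itgav with Itgb1 was then 28.7 in control, 29.3 in SAHA and 34.5 in Smarcb1-RE. Itga4 with Itgb7 went from 0.177 to 0.288 and 0.778. RNA levels do not measure the pairs at the cell surface.

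**Figure D4:**
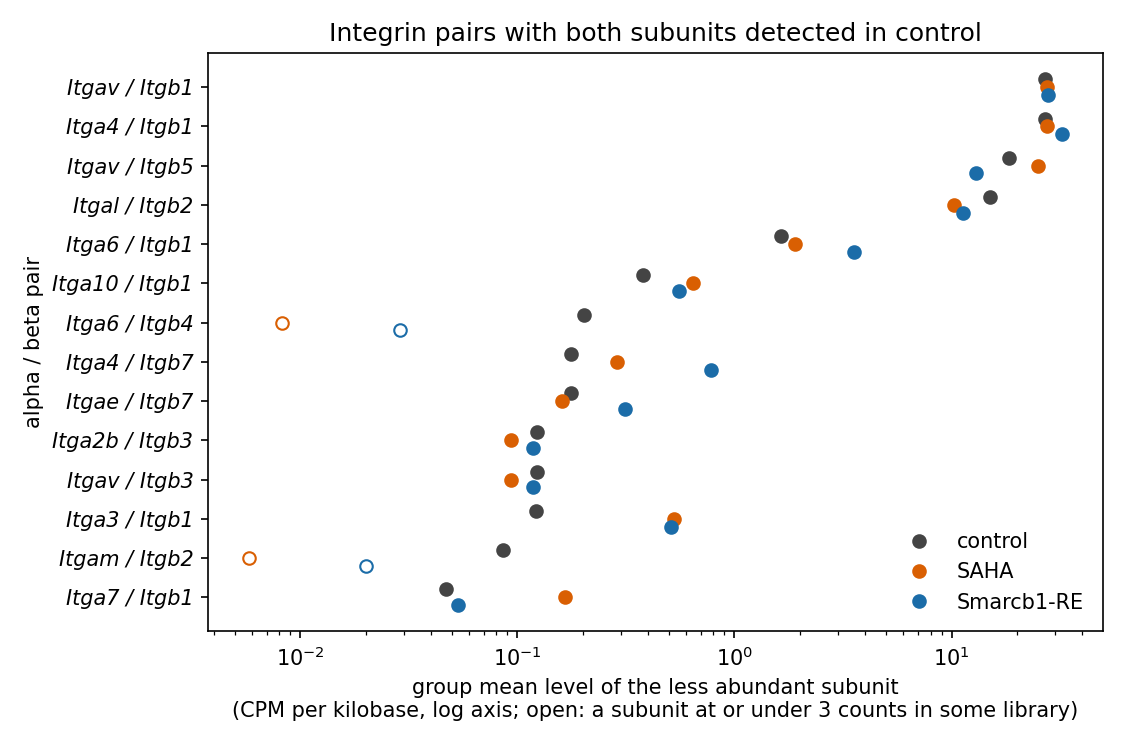
Group mean level of the less abundant subunit, in CPM per kb on a log axis, for the 14 alpha and beta pairs whose subunits were both detected in control. Open points mark groups in which a subunit lay at or under 3 counts in some library. Itga6 with Itgb4 and Itgam with Itgb2 are open in both treated groups. For Itgav with Itgb5, the SAHA point is the highest of the 3 groups and the Smarcb1-RE point the lowest.

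Itga4 made up a larger part of the alpha subunit RNA in the treated groups. Of the summed alpha subunit level per kb, Itga4 made up 38.2% ± 1.2 in control, 45.2% ± 0.47 in SAHA and 54.6% ± 0.28 in Smarcb1-RE. Itgav made up 41.6% ± 0.9, 41.6% ± 0.54 and 28.1% ± 0.36, and Itgal 16.9% ± 0.27, 9.65% ± 0.18 and 11.5% ± 0.43. Of the beta subunits, Itgb2 held 53.8% ± 0.64, 51.9% ± 0.61 and 55.7% ± 1.1, Itgb1 27.2% ± 0.43, 25.0% ± 0.4 and 31% ± 0.77, and Itgb5 18.5% ± 0.38, 22.8% ± 0.73 and 12.4% ± 0.67.

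The ratio of Itga4 to Itgav per kb was 0.865, 0.941 and 0.950 in the control libraries, 1.06, 1.11 and 1.09 with SAHA and 1.97, 1.94 and 1.92 in Smarcb1-RE. The ratio of Itga4 to Itgal was 2.26 ± 0.068, 4.68 ± 0.12 and 4.76 ± 0.19 in these groups, and that of Itgb1 to Itgb5 was 1.47 ± 0.029, 1.10 ± 0.049 and 2.50 ± 0.15. Such ratios within a library do not depend on how libraries are scaled, although their absolute size depends on the lengths used. In these 3 ratios and in that of Itgb1 to Itgb2, each treated group was separate from control in every comparison. The ratios combine subunits whose levels are given above, so this separation is not independent of those results. Calls were common over all tested genes (32.6% higher and 34.3% lower in SAHA, 39.2% and 38.6% in Smarcb1-RE). How often ratios of other subunits or genes separate in this way was not counted. In a two-sided exact permutation test, all 8 comparisons gave p = 0.1 (also 0.1 after Benjamini-Hochberg adjustment), which is the smallest that 3 libraries against 3 allow, so that p under 0.05 could not be reached.

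**Figure D5:**
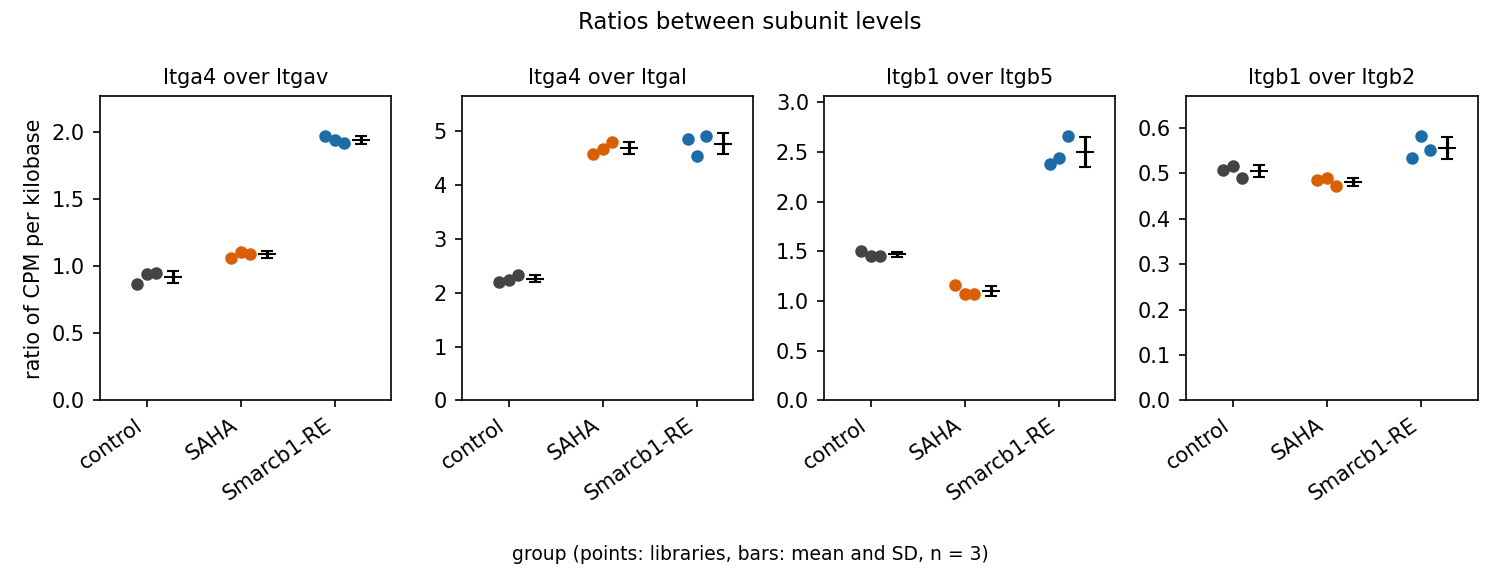
Ratio of the per-kilobase levels of 4 pairs of subunits in each library, with the group mean and SD (n = 3) beside the points. Itga4 over Itgav is close to 1 in control and SAHA and near 2 in Smarcb1-RE, Itga4 over Itgal is above control in both treated groups, and Itgb1 over Itgb5 lies under control in SAHA and above it in Smarcb1-RE.

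Genes that act with the adhesion molecules were counted in 6 lists, and called genes with large changes are named. For SAHA, 32.6% of all tested genes were called higher and 34.3% lower (median log2 fold change 0.00). For Smarcb1-RE these shares were 39.2% and 38.6% (median 0.01). Counts of the adaptors and of the Cd44 list were close to these shares. Of 35 tested adaptors that link integrins to actin or activate them, 15 were higher and 10 lower in SAHA (median log2 fold change 0.10) and 12 higher and 16 lower in Smarcb1-RE (median -0.12). Fermt3 (kindlin-3), which activates integrins in blood cells, fell from 309 to 161 CPM in SAHA (-0.94, adjusted p = 7.04e-09). The focal adhesion protein Zyx fell from 94.8 to 33.6 CPM in Smarcb1-RE (-1.49, adjusted p = 1.05e-10). Tns2, a tensin, rose in both (2.26 and 1.56), and Actn1 rose in SAHA (1.69). Of 13 tested integrin ligands, 7 were higher and 1 lower in SAHA and 8 higher and 2 lower in Smarcb1-RE. Lama5 (3.05 and 1.91) and Icam5 (2.31 and 1.60) rose in both, Lamc1 rose in SAHA (0.60), and Npnt, a ligand of the integrin formed by Itga8 and Itgb1, fell from 5.80 to 0.346 CPM in Smarcb1-RE (-4.04, adjusted p = 1.29e-09).

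Of 14 tested genes of L-selectin and selectin ligand synthesis, 9 were higher and 1 lower in SAHA, led by Gcnt1, which builds the core of selectin ligands (1.06), Cd24a (1.00) and the tyrosine sulfotransferase Tpst2 (0.96). In Smarcb1-RE 6 were higher and 5 lower, among them Cd34 (1.82), Spn (CD43, -1.11) and Cd24a (0.81). Of 11 tetraspanins and other integrin partners, 4 were higher and 6 lower in SAHA (median log2 fold change -0.23). The genes named by size of change were nevertheless all higher there. Cd47 rose from 199 to 350 CPM (0.82, adjusted p = 1.33e-08), Cd81 rose by 0.52 and Cd9, with overlapping groups, by 0.38. In Smarcb1-RE 7 were higher and 2 lower, including Slc3a2 (0.76), Cd9 (0.72) and Bsg (-0.69). Of 9 genes of Cd44 linkage and hyaluronan, 2 were higher and 3 lower in SAHA, including Ezr (0.40) and Msn (0.36), which tie Cd44 to actin, and the hyaluronidase Hyal2 (-0.32). In Smarcb1-RE 4 were higher and 4 lower, the named ones being Hyal2 (-1.10), Hmmr (-0.85) and Rdx (-0.48). Of 15 other immunoglobulin-type adhesion genes, 11 were higher and 1 lower in SAHA (Bcam 3.07, Nectin2 2.81, Cxadr 1.42) and 8 higher and 1 lower in Smarcb1-RE (Ncam2 3.22, Cxadr 2.77, Cd84 2.75). The medians of this last list were 0.50 and 0.29.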

How the data were processed

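RNA-seq libraries of T15 cells (3 control, 3 SAHA, 3 Smarcb1-RE) were grouped by the treatment named in the sample labels, and replicate numbers come from the sample titles. The authors deposited 1 table of estimated counts per Ensembl gene, neither normalized nor pooled, in which 52.4% of the values above 0 were not whole. The submitters' processing notes list FastQC 0.11.8, MultiQC 1.7, Salmon 0.14.1, DESeq2 1.22.2 and GRCm38 without saying which step each served. The library kit was directional and reads were single-end, but the strand setting of the quantification is not given in the sources used here. How reads shared between overlapping or similar genes were divided is not stated either, so such genes are uncertain.

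Counts were rounded to whole numbers. Names, coordinates and exon lengths came from GENCODE M21 (GRCm38), in which 99.5% of identifiers, with 99.9% of the counts, were found. One quasi-likelihood model of edgeR 4.0.16 (R 4.3.3; glmQLFit, glmQLFTest) with TMM factors was fitted to all libraries, for the 13697 genes that filterByExpr kept at a minimum count of 10. P-values were adjusted by Benjamini-Hochberg over these genes and called under 0.05. The common biological coefficient of variation was 5.24%. All adjusted p-values are from this test unless DESeq2 1.42.0 is named. Standard errors were derived from the F statistic of each contrast. Where edgeR's test was not run, ratios of summed counts carry an exact binomial 95% interval. The study describes its replicates as biological. No pair of replicates agreed within sampling noise (chi-square per gene 2.12 to 15.0).

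Counts in every library are given for genes called with an absolute log2 fold change of at least 1 in a comparison with control and for the 6 genes of highest level per kb in control. From each list, up to 3 called genes of largest change are named, if their average log2 CPM was 1 or more, and 1 such gene is not reported here. Values of other genes are added, chosen after they were seen. The 37 genes and the other lists were chosen with earlier results of these data known. Alternatives were another test (DESeq2), other scalings (RLE factors or plain library totals), other filters on low counts (none, or a minimum of 10 counts in each library), fits to pairs of groups, a replicate block, stricter calls, each library left out, and another gene length. Promoters are from RefSeq (GRCm38.p6). The calculations were tested on simulated counts.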

Additional observations from a re-analysis of the deposited data

How the results depend on the processing

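Over all alternatives, the log2 fold changes of the 22 genes gave 1175 combinations of a gene, a comparison and a setting. Of these, 1045 kept direction and side of the threshold, 111 lost the call, 10 gained one and 9 changed sign. Among the 927 combinations of called values, 816 kept the call, 111 lost it and none changed sign. The counts of called genes moved by over 1.5 times when an absolute log2 fold change of at least 1 was required, to 5 higher and 1 lower in SAHA, to 6 and 1 in Smarcb1-RE and to 3 and 3 in Smarcb1-RE against SAHA. At an adjusted p under 0.01, 6 genes were higher in Smarcb1-RE than in SAHA. With each library left out in turn, 11 to 16 genes were higher in SAHA and 10 to 12 in Smarcb1-RE. With the replicate number as a block, 12 genes were higher and 3 lower in SAHA, and Itgb2, Itgb7 and Itga2b lost their SAHA calls (adjusted p = 0.0538, 0.074 and 0.066), as did Itgb4 in Smarcb1-RE against SAHA (0.0578). In the whole table, the block moved the number of genes higher in SAHA from 4464 to 4366. Libraries with the same number showed no shared deviation (mean correlation -0.003, from -0.072 to 0.037 over 9 pairs, against 0.002 for different numbers). Of the 9 libraries, 3 correlated best with their own number, as many as unrelated numbers would give on average. Deviations were taken from the mean of each group's own 3 libraries, so these values cannot show whether the libraries were handled in pairs.

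All values that changed sign were without a call. Against control in Smarcb1-RE, Itgb3 (-0.06) became 0.09 and Icam1 (-0.06) became 0.10 with library totals only, and Itgb3 ranged from -0.38 to 0.21 with each library left out. In Smarcb1-RE against SAHA, Itga3 (-0.04) became 0.12 with library totals only and ranged from -0.09 to 0.01 with each library left out, and Itgb2 (0.03) from -0.01 to 0.05. The share of higher genes among all calls in that comparison was 50.6%, and 62.1% with library totals only. The cause of these changes was not tested. SAHA calls of the scarce Itgb7 and Itga2b, and the direct calls of the scarce Itgb4 and Selplg, were lost with DESeq2 and in most fits without a library. The direct call of Itga2b was lost with DESeq2 (adjusted p = 0.0527). Abundant genes lost calls as well. The SAHA call of Itgb2 was lost in 7 of the 9 fits without a library, but kept with DESeq2 (adjusted p = 0.0278). The direct call of the abundant Itga4 was lost in 7 of the 9 fits without a library and with RLE factors (0.0691). Calls were gained for Icam4 in SAHA, Itgae in Smarcb1-RE and Itgal, Itgb2 and Icam4 in Smarcb1-RE against SAHA. Leaving out a library left its group with 2, and the spread was pooled over all groups.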
